A study of Mus musculus with 16 samples.

Results

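The 9 genes described here encode the secreted ligands of the vascular endothelial growth factor (VEGF) system, Vegfa, Vegfb, Vegfc and Pgf, its receptors Flt1 and Kdr, its coreceptors Nrp1 and Nrp2, and Angpt1, a ligand of the neighbouring Tie system. They were chosen by name and, within a gene, by the brightest probe set over all arrays, from a table of 19938 genes. Each of the 9 genes has 1 probe set, so brightness decided nothing, and all 9 were measured and tested without a filter on dim genes. RNA came from mouse embryo fibroblasts (MEFs), cells grown out of embryos, on 16 Affymetrix Mouse Gene 1.0 ST arrays with 4 arrays in each of 4 groups. These were TNFα-treated SIMPL-/-, untreated SIMPL-/-, TNFα-treated littermate and untreated littermate MEFs, the last also named WT in the array labels, where SIMPL-/- cells appear under the gene's symbol, Irak1bp1. All cells were proliferating, of mixed C57Bl/6 and 129Sv strain, and those treated received recombinant human TNFα, a cytokine of inflammation, at 10 ng/ml for 45 min by the labels or 1 h by the study's methods. Each group is 4 sets of fibroblasts, each derived from a single embryo by those methods, so that the genotypes also differ in embryo. All values are log2 values after robust multi-array averaging (RMA), a method that corrects background, equalises the arrays and summarises the probes of a gene. A difference of 1 is a doubling.

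VEGF ligands are dimers that bind receptor tyrosine kinases on endothelial cells. Vegfa drives the growth and permeability of vessels mainly through the receptor encoded by Kdr, while the receptor encoded by Flt1 binds Vegfa, Vegfb and Pgf and, in its soluble form, holds ligand away from Kdr. Neuropilins, encoded by Nrp1 and Nrp2, bind VEGF ligands beside these receptors and also bind class 3 semaphorins, which guide axons and vessels. Angpt1 binds the receptor encoded by Tek and stabilises vessels. Fibroblasts are known as a source of Vegfa, and its gene is known to respond to low oxygen and to inflammatory signals.

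Array medians lay between 6.67 and 6.76, which RMA brings together, so they do not show the depth of the raw signal. Pearson's r across genes was at least 0.995 for any pair of arrays of 1 group. Irak1bp1, the targeted gene, averaged 5.37 ± 0.24 and 5.36 ± 0.19 in TNFα-treated and untreated SIMPL-/- MEFs, and 7.91 ± 0.18 and 8.09 ± 0.17 in TNFα-treated and untreated littermate MEFs (SD, n = 4 each). Whether its probe set lies within the deleted part was not examined. All 10 genes listed as known TNFα targets rose in SIMPL-/- and in littermate MEFs, with median responses of 2.18 and 2.92. For 6 of the 10 the response was called smaller in SIMPL-/- MEFs, against 0.441% of all genes. Fibroblast markers were bright in all groups (means of 17 genes from 11.7 to 12.1), and the defining endothelial genes Pecam1 (group means from 5.26 to 5.43) and Cdh5 (from 5.80 to 6.05) were below the array medians in all. Of the 20 endothelial markers, 3 (Ecscr, Egfl7 and Ptprb) lay above those medians in all 4 groups. Against the fibroblast label, markers of myeloid cells were also present, and 24 of 24 measured ones stood below littermate level in SIMPL-/- MEFs with and without TNFα. Their mean ranged from 7.46 to 7.60 on the TNFα-treated and from 7.45 to 7.62 on the untreated SIMPL-/- arrays, against 9.58 to 10.05 on the TNFα-treated and 9.52 to 9.90 on the untreated littermate arrays. In RNA from whole cultures, fewer cells of a type and less RNA per cell cannot be told apart.

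**Figure D1:**
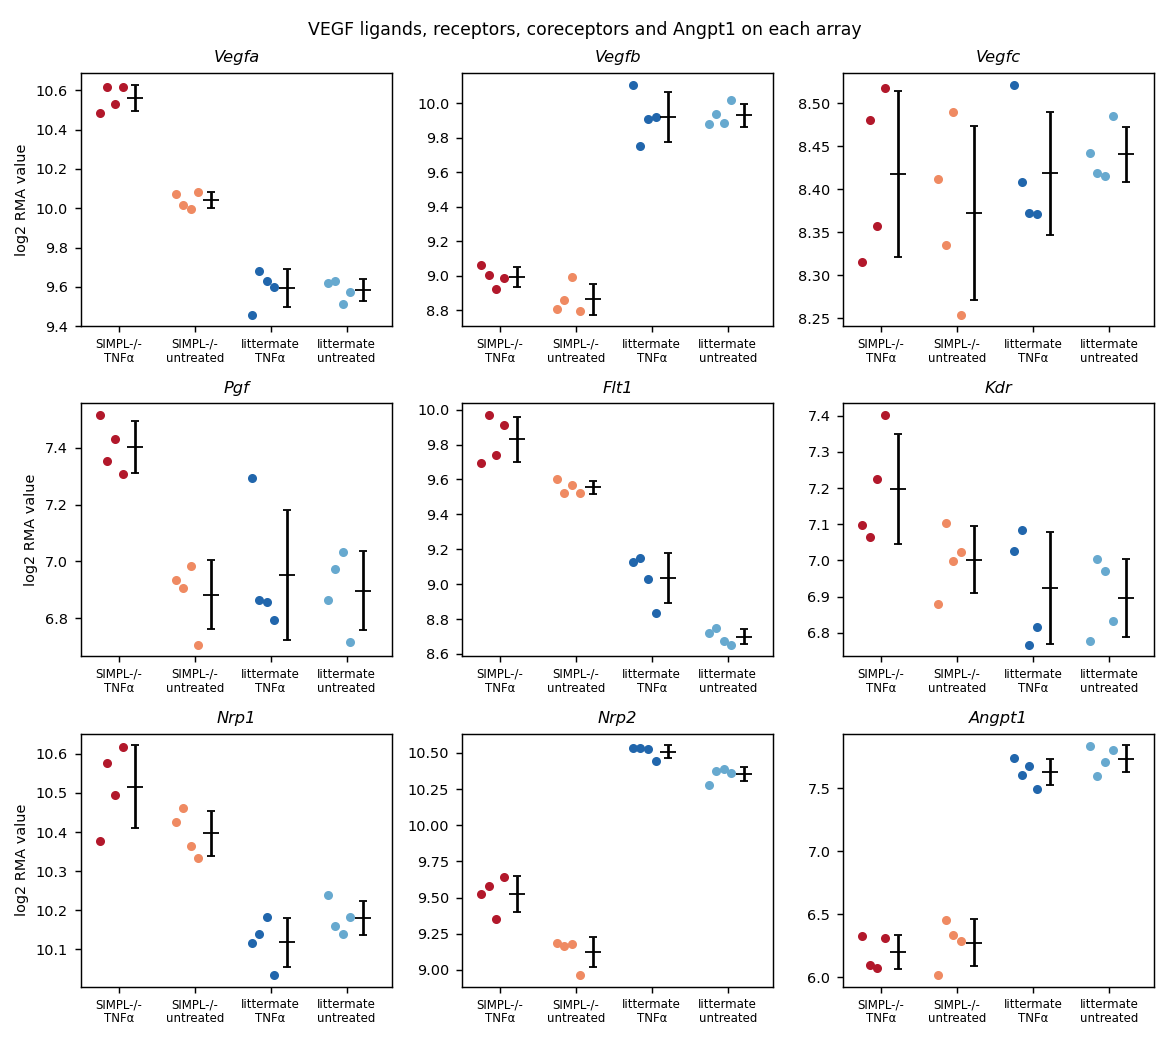
Log2 RMA value (vertical axis, with its own range for each gene) of the 9 genes on each of the 16 arrays, by group (horizontal axis). Points are arrays, and the lines beside them show the mean and SD of 4 arrays. Vegfa stood in 3 tiers, with TNFα-treated SIMPL-/- arrays from 10.48 to 10.62, untreated SIMPL-/- arrays from 10.00 to 10.08 and all littermate arrays from 9.46 to 9.68.

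Vegfa, the central ligand of the system, was raised by TNFα in SIMPL-/- MEFs, while no rise was called in littermate MEFs. Its values were 10.48, 10.62, 10.53 and 10.62 on the TNFα-treated SIMPL-/- arrays and 10.07, 10.02, 10.00 and 10.08 on the untreated SIMPL-/- arrays. On the littermate arrays they were 9.46, 9.68, 9.63 and 9.60 with TNFα and 9.62, 9.63, 9.51 and 9.57 without it. All treated SIMPL-/- arrays lay above all untreated SIMPL-/- arrays, which in turn lay above all littermate arrays, and the littermate groups overlapped. The response in SIMPL-/- MEFs was a log2 difference of 0.52 (SE 0.06, 95% interval 0.40 to 0.64, 1.43-fold), with an adjusted p of 9.42e-06 in a limma fit over all genes. By size of rise this was 111th of 19938 genes. In littermate MEFs the response was 0.01 (SE 0.06, 95% interval -0.11 to 0.13, adjusted p = 0.96). SIMPL-/- MEFs exceeded littermate MEFs by 0.97 after TNFα (SE 0.06, 1.96-fold, adjusted p = 1.11e-10) and by 0.46 without it (SE 0.06, 1.37-fold, adjusted p = 3.11e-06). The order of the groups was thus TNFα-treated SIMPL-/-, untreated SIMPL-/-, then the littermate groups, which did not differ beyond their spread. The 250 bases before the first annotated start of the gene (RefSeq, build GRCm38.p6, chr17:46032378-46032627, minus strand) are shown because Vegfa is the member whose responses were called different between the genotypes. Capitals here and in the promoters that follow mark matches on either strand to the NF-κB consensus, the site family bound by the Rel factors that TNFα activates, and to the GC box GGGCGG, bound by Sp factors.
Vegfa promoter: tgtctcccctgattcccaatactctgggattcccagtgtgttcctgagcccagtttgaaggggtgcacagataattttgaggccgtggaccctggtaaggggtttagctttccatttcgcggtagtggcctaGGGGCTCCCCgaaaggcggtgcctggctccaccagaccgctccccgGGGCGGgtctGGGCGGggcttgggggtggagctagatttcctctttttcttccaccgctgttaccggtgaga
The NF-κB match begins at position -118 from the start, and GC boxes begin at -72 and -62. A match is a run of letters and was not tested for binding.

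Pgf encodes placental growth factor, a ligand of the Flt1 receptor, and rose with TNFα in SIMPL-/- MEFs. Its values were 7.52, 7.35, 7.43 and 7.31 on the TNFα-treated SIMPL-/- arrays and 6.93, 6.91, 6.98 and 6.71 on the untreated SIMPL-/- arrays. Littermate arrays read 7.29, 6.87, 6.86 and 6.79 with TNFα and 6.87, 6.97, 7.03 and 6.72 without it. The treated SIMPL-/- arrays stood above all other arrays, with the first treated littermate array just beneath them, and the remaining 3 groups overlapped. The response was 0.52 in SIMPL-/- MEFs (SE 0.10, 1.43-fold, adjusted p = 0.00402) and 0.06 in littermate MEFs (SE 0.10, 95% interval -0.15 to 0.26, adjusted p = 0.847). SIMPL-/- exceeded littermate MEFs by 0.45 after TNFα (SE 0.10, adjusted p = 0.00113), and without TNFα the difference was -0.01 (95% interval -0.22 to 0.19, adjusted p = 0.919). Vegfa was therefore higher in SIMPL-/- MEFs with and without TNFα, and Pgf was called higher only with it. Its promoter (chr12:85177314-85177563, minus strand, first of 2 annotated starts) is set beside that of Vegfa because both genes rose in the same cells.
Pgf promoter: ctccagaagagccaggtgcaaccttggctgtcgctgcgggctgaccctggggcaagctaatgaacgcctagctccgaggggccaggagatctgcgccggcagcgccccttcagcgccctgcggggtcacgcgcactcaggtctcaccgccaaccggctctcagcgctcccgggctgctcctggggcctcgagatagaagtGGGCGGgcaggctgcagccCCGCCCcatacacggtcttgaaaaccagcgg
It holds GC boxes at -50 and -31 and no NF-κB match.

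Vegfb, which also binds the Flt1 receptor and is known for roles in heart and muscle more than in vessel sprouting, ran opposite to Vegfa between the genotypes. TNFα-treated and untreated SIMPL-/- arrays lay from 8.92 to 9.06 and from 8.80 to 8.99, against 9.75 to 10.11 and 9.88 to 10.02 on the TNFα-treated and untreated littermate arrays. No SIMPL-/- array reached a littermate array, and within each genotype the treated and untreated arrays overlapped. Vegfb was lower in SIMPL-/- MEFs by a log2 difference of -0.93 after TNFα (SE 0.07, adjusted p = 2.81e-09) and -1.07 without it (SE 0.07, adjusted p = 4.78e-10). No response to TNFα was called, with 0.13 in SIMPL-/- (adjusted p = 0.391) and -0.01 in littermate MEFs (adjusted p = 0.976). Vegfc, the ligand of lymphatic vessel growth, did not pass any of the tests. Its 16 values lay between 8.25 and 8.52, and the 95% interval of the difference between SIMPL-/- and littermate MEFs was -0.13 to 0.13 after TNFα and -0.20 to 0.06 without it.

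Flt1 was the member that rose with TNFα in both genotypes, and it was also higher in SIMPL-/- MEFs. Its values were 9.70, 9.97, 9.74 and 9.91 on the TNFα-treated SIMPL-/- arrays and 9.60, 9.52, 9.57 and 9.52 on the untreated ones. Littermate arrays read 9.13, 9.15, 9.03 and 8.83 with TNFα and 8.72, 8.75, 8.67 and 8.65 without it. The 4 groups did not overlap, and their order was TNFα-treated SIMPL-/-, untreated SIMPL-/-, TNFα-treated littermate and untreated littermate. The response to TNFα was 0.28 in SIMPL-/- (SE 0.07, 1.21-fold, adjusted p = 0.0419) and 0.34 in littermate MEFs (SE 0.07, 1.26-fold, adjusted p = 0.00742). The call in SIMPL-/- MEFs was close to the threshold, and it was lost without 11 of the 16 arrays in turn, with adjusted p up to 0.163 without TNFα-treated SIMPL-/- replicate 2. Between the genotypes Flt1 differed by 0.79 after TNFα (SE 0.07, 1.73-fold, adjusted p = 4.04e-08) and by 0.86 without it (SE 0.07, 1.81-fold, adjusted p = 1.66e-08). The array gives 1 value for the gene, and its soluble and membrane forms were not measured apart. The promoter (chr5:147726012-147726261, minus strand) is shown as that of the receptor that rose in both genotypes.
Flt1 promoter: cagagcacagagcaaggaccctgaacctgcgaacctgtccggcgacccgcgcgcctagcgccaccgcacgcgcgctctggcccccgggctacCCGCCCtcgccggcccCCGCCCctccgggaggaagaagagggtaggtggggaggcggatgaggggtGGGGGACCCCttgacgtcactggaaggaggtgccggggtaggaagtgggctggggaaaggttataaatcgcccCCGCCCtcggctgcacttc
Its NF-κB match begins at -92, and GC boxes begin at -158, -142 and -19.

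Kdr, the main signalling receptor for Vegfa on endothelium, was called in 1 of the 5 comparisons. TNFα-treated and untreated SIMPL-/- arrays lay from 7.07 to 7.40 and from 6.88 to 7.10, and TNFα-treated and untreated littermate arrays from 6.77 to 7.08 and from 6.78 to 7.00. All 4 groups overlapped their neighbours in order of level. Kdr was higher by 0.27 in SIMPL-/- than in littermate MEFs after TNFα (SE 0.09, adjusted p = 0.0166), although a treated SIMPL-/- array lay below a treated littermate array. That call was lost without TNFα-treated littermate replicate 3 or 4 or TNFα-treated SIMPL-/- replicate 4 (adjusted p from 0.0522 to 0.0663). Without TNFα the difference was 0.11 (adjusted p = 0.332), and the responses were 0.20 in SIMPL-/- (adjusted p = 0.272) and 0.03 in littermate MEFs (adjusted p = 0.923).

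The coreceptors Nrp1 and Nrp2 differed between the genotypes in opposite directions. Nrp1, a coreceptor of Kdr and a receptor of Sema3a, lay from 10.38 to 10.62 and from 10.33 to 10.46 on TNFα-treated and untreated SIMPL-/- arrays, against 10.03 to 10.18 and 10.14 to 10.24 on TNFα-treated and untreated littermate arrays. It was higher in SIMPL-/- MEFs by 0.40 after TNFα (SE 0.06, 1.32-fold, adjusted p = 2e-05) and by 0.22 without it (SE 0.06, 1.16-fold, adjusted p = 0.00659). All SIMPL-/- arrays exceeded all littermate arrays, and within a genotype the treated and untreated arrays overlapped. Nrp2, the coreceptor tied to lymphatic vessels and to Sema3f, read 9.53, 9.58, 9.35 and 9.64 on TNFα-treated and 9.19, 9.16, 9.18 and 8.96 on untreated SIMPL-/- arrays. On littermate arrays it read 10.53, 10.54, 10.53 and 10.44 with TNFα and 10.28, 10.38, 10.39 and 10.36 without it. The 4 groups did not overlap, in the order TNFα-treated littermate, untreated littermate, TNFα-treated SIMPL-/- and untreated SIMPL-/-. Nrp2 rose with TNFα by 0.40 in SIMPL-/- MEFs (SE 0.07, 1.32-fold, adjusted p = 0.00112). In littermate MEFs the response was 0.16 (SE 0.07) and did not pass the test (adjusted p = 0.22). Nrp2 was lower in SIMPL-/- MEFs by a log2 difference of -0.99 after TNFα (SE 0.07, adjusted p = 5.96e-10) and -1.23 without it (SE 0.07, adjusted p = 3.22e-11). Its promoter (chr1:62703067-62703316, plus strand) completes those of the 4 members that rose with TNFα in SIMPL-/- MEFs.
Nrp2 promoter: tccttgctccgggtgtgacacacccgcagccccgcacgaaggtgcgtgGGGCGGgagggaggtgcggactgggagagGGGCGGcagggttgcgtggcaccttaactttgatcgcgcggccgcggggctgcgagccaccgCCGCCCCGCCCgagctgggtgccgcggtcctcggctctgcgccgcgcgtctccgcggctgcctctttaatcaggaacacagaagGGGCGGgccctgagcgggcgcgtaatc
Its GC boxes begin at -202, -173, -111, -106 and -27, and it holds no NF-κB match.

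Angpt1 was the member with the largest span of group means, 1.54, and it was lower in SIMPL-/- MEFs. It read 6.32, 6.10, 6.07 and 6.31 on TNFα-treated and 6.02, 6.46, 6.33 and 6.29 on untreated SIMPL-/- arrays, against 7.74, 7.60, 7.68 and 7.50 on TNFα-treated and 7.84, 7.60, 7.71 and 7.80 on untreated littermate arrays. The SIMPL-/- arrays all stood beneath the littermate arrays, and treated and untreated arrays overlapped within both genotypes. The log2 difference was -1.43 after TNFα (SE 0.09, adjusted p = 2.41e-10) and -1.46 without it (SE 0.09, adjusted p = 2.02e-10). The response to TNFα was -0.07 in SIMPL-/- and -0.11 in littermate MEFs (adjusted p = 0.773 and 0.615).

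Of the 9 members, 8 have promoter windows in the RefSeq table, 10 windows in all, and Angpt1 was not among them. In the first window of each gene, the NF-κB consensus matched in 3 of 8, those of Vegfa, Flt1 and Kdr, where the match begins at -74. The GC box matched in 8 of 8. These first windows were 59.2% to 76.4% G or C, and the shares over all windows given below were not matched for this. The hypoxia element core ACGTG and the AP-1 site TGANTCA, bound by Hif and by Fos and Jun factors, matched in 0 of 8. Among the 2 second windows, that of Vegfa held ACGTG at -211, a GC box at -158 and no NF-κB match, and that of Pgf held no match to any of the 4 motifs. Of all 32851 windows of this length in the table, 7.25% held the NF-κB consensus, 32.7% GGGCGG, 16.6% ACGTG and 6.75% TGANTCA, each searched on both strands and with overlapping matches counted. Of the 4 members raised by TNFα in SIMPL-/- MEFs, Vegfa and Flt1 had an NF-κB match in the first window and Pgf and Nrp2 had none.

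Across the members, TNFα called 4 of 9 genes in SIMPL-/- MEFs, Vegfa, Pgf, Nrp2 and Flt1, all higher. Of all genes, 3.12% were called in that comparison, with 1.73% of all genes higher and 1.39% lower. The median response of the 9 genes was 0.20, against -0.02 over all genes. In littermate MEFs 1 of 9 was called, Flt1, against 5.15% of all genes (2.70% higher and 2.45% lower), and the medians were 0.01 for the members and 0.01 for all genes. The groups with and without TNFα were apart for 4 of 9 members in SIMPL-/- MEFs (9.28% of all genes) and for Flt1 and Nrp2 in littermate MEFs (11.4% of all genes). No member exceeded a 1.5-fold response in either genotype.

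**Figure D2:**
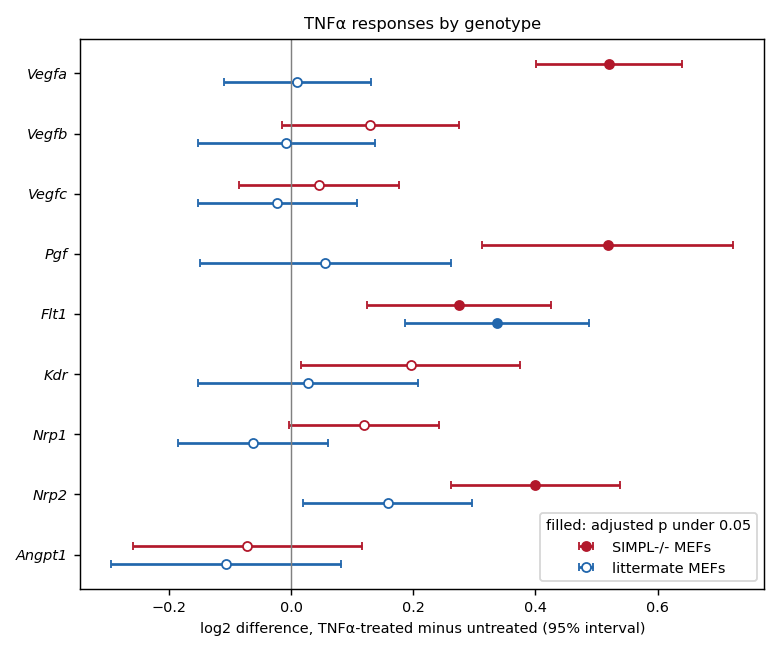
Response to TNFα of the 9 genes as the log2 difference between TNFα-treated and untreated MEFs (horizontal axis) with its 95% interval from limma, for SIMPL-/- (red) and littermate (blue) cells, 4 arrays per group. Filled points have an adjusted p under 0.05, as for Vegfa, Pgf, Flt1 and Nrp2 in SIMPL-/- and for Flt1 in littermate MEFs.

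Whether TNFα acted differently in the genotypes was asked with the difference between the responses, SIMPL-/- minus littermate. Vegfa passed this test, at 0.51 (SE 0.08, 95% interval 0.34 to 0.68, adjusted p = 0.00353), and it was 1 of 9 members called, against 0.537% of all genes. In this comparison 19 genes were called with a larger value in SIMPL-/- (0.0953% of all) and 88 with a smaller one (0.441%). Vegfa was 7th of those 19 by size, and 8 of the 19 rose with TNFα in SIMPL-/- MEFs with no rise called in littermate MEFs. The difference for Pgf was 0.46 (SE 0.14, 95% interval 0.17 to 0.75, adjusted p = 0.168), close to that of Vegfa in size but with a wider error. Without each array in turn it lay between 0.40 and 0.58, with adjusted p from 0.0227 to 0.29. It was called in 1 of these 16 fits, the one without TNFα-treated littermate replicate 1, the array that stands high for Pgf. The difference was 0.24 for Nrp2 (adjusted p = 0.289), 0.18 for Nrp1 (adjusted p = 0.37) and 0.17 for Kdr (adjusted p = 0.577). For Flt1, which was called in both genotypes, it was -0.06 (95% interval -0.27 to 0.15, adjusted p = 0.842). Vegfb, Vegfc and Angpt1 lay between 0.03 and 0.14. At an unadjusted p under 0.05 there were 4 members, Vegfa, Pgf, Nrp2 and Nrp1. All of these differences share the same 16 arrays.

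**Figure D3:**
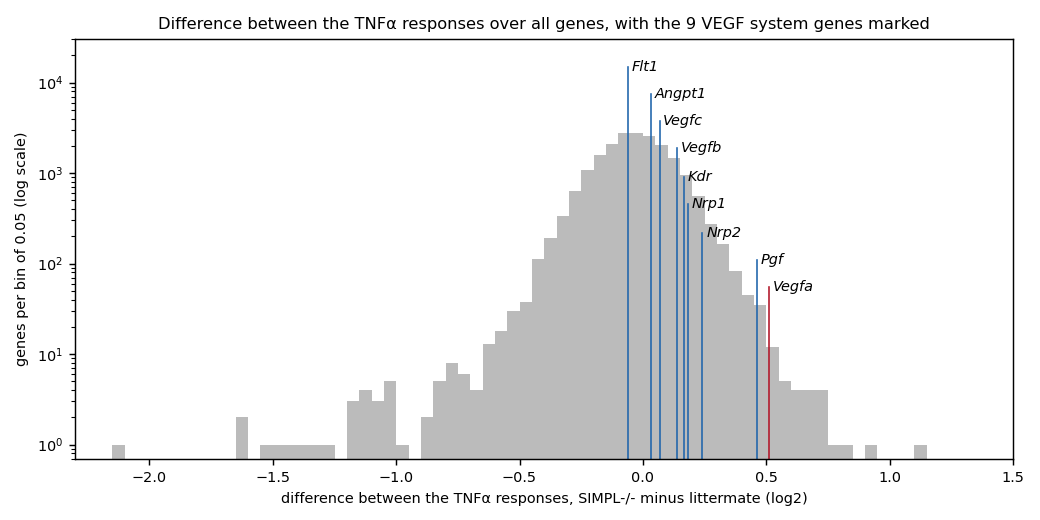
Difference between the TNFα responses (SIMPL-/- minus littermate, log2, horizontal axis) for all 19938 genes, as the number of genes per bin on a log axis, with the 9 members marked by vertical lines whose height has no meaning. Vegfa, at 0.51, and Pgf, at 0.46, lie in the right tail, and the other 7 members lie between -0.06 and 0.24.

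Between the genotypes the members split by gene. After TNFα, 8 of 9 were called, with Vegfa, Flt1, Pgf, Nrp1 and Kdr higher and Vegfb, Nrp2 and Angpt1 lower in SIMPL-/- MEFs, against 36.3% of all genes (17.8% higher and 18.4% lower). Without TNFα, 6 of 9 were called, Vegfa, Flt1 and Nrp1 higher and Vegfb, Nrp2 and Angpt1 lower, against 40.9% of all genes (23.3% higher and 17.6% lower). A difference between the genotypes was common on these arrays. The genotypes were apart without overlap for 7 of 9 members after TNFα (33.3% of all genes) and for 6 of 9 without it (39.6% of all genes). The median over all genes was 0.03 after TNFα and 0.07 without it. Among the members a fold change over 1.5 in either direction was reached by 5 of 9 after TNFα and by 4 of 9 without it.

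**Figure D4:**
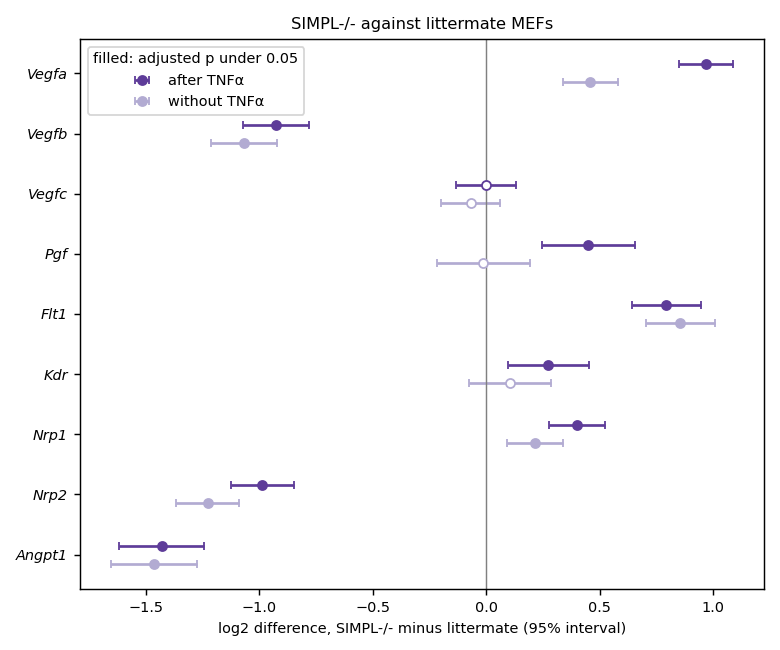
Difference between SIMPL-/- and littermate MEFs in log2 (horizontal axis) with its 95% interval from limma for the 9 genes, after TNFα (dark) and without it (light), 4 arrays per group. Filled points have an adjusted p under 0.05, and Vegfa, Flt1 and Nrp1 lie right of 0 while Vegfb, Nrp2 and Angpt1 lie left of it under both conditions.

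Markers of several cell types moved with genotype beside these genes. The calls between the genotypes covered 36.3% of all genes after TNFα and 40.9% without it. Myeloid markers had a median difference of -2.43 after TNFα and -2.33 without it. Adipocyte markers were higher in SIMPL-/- MEFs for 7 of 9 genes after TNFα and 8 of 9 without it, with means of 7.98 and 8.02 on TNFα-treated and untreated SIMPL-/- arrays, against 6.91 and 6.83 on TNFα-treated and untreated littermate arrays. Of 10 epithelial markers, 5 were higher after TNFα and 7 without it, and none was lower. Of 17 fibroblast markers, 3 were higher and 11 lower after TNFα, and 3 higher and 12 lower without it. Of 20 endothelial markers, 3 were higher and 4 lower after TNFα, and 6 higher and 2 lower without it, shares near those of all genes. Their log2 differences after TNFα and without it were 0.59 and 0.68 for Emcn and 0.47 and 0.54 for Esam. Erg stood at -1.02 and -1.06 and Clec14a at -0.66 and -0.97. Of 12 pericyte and smooth muscle markers, which mark cells that wrap vessels, 6 were higher and 2 lower after TNFα, and 5 higher and 2 lower without it. After TNFα, Cnn1 stood at 1.18, Cspg4 at 1.13, Notch3 at -0.59 and Abcc9 at -0.55 in log2 difference. The part of these markers in the differences of the 9 genes between the genotypes was not tested. Within a genotype, 0 of 24 myeloid markers were called for TNFα in SIMPL-/- and 1 of 24 in littermate MEFs. The endothelial list, whose array means lay between 6.15 and 6.40 in all groups, had 0 of 20 called in either genotype. Of all genes, 3.12% were called for TNFα in SIMPL-/- and 5.15% in littermate MEFs, and these counts are near those shares. A hybridization batch that followed genotype cannot be told apart from it.

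**Figure D5:**
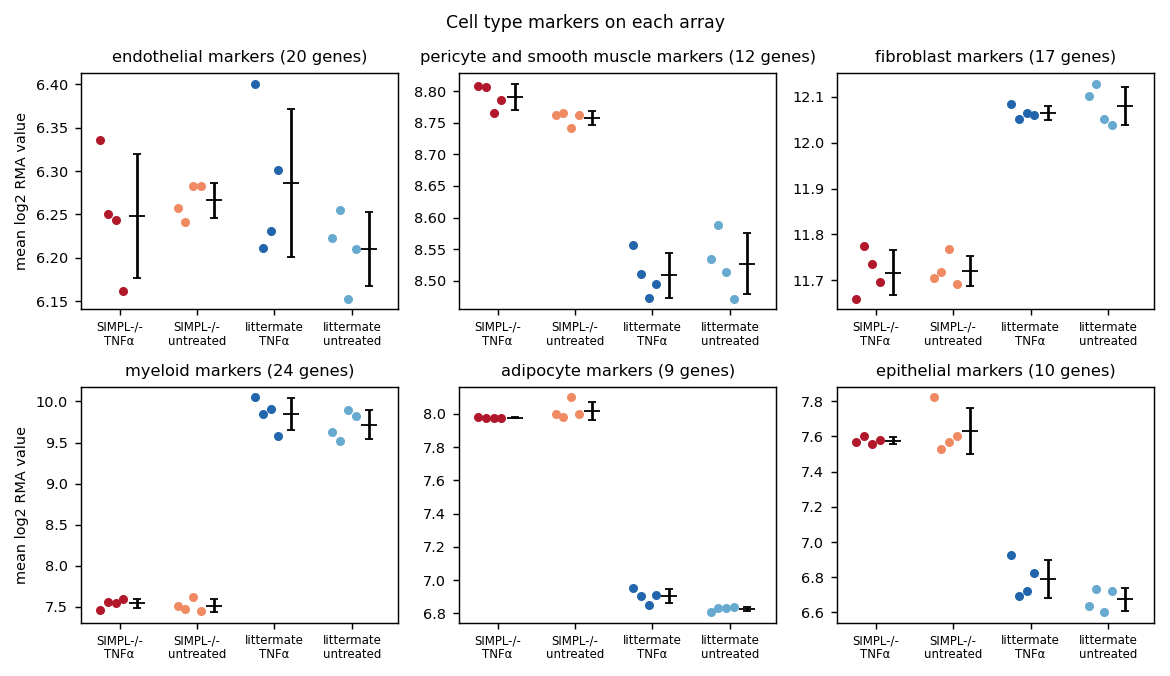
Mean log2 RMA value of each of 6 cell type marker lists on each array (vertical axis, with its own range for each list), by group (horizontal axis), with the mean and SD of 4 arrays. Myeloid and fibroblast markers lie lower and adipocyte, epithelial and mural markers higher on SIMPL-/- arrays, while endothelial markers overlap in all 4 groups.

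The rest of the VEGF and Tie systems held 6 measured genes. Vegfd, a second ligand of lymphatic growth, averaged 9.82 and 9.98 in TNFα-treated and untreated SIMPL-/- MEFs, against 10.95 and 10.94 in TNFα-treated and untreated littermate MEFs. It was lower in SIMPL-/- MEFs by a log2 difference of -1.13 after TNFα (SE 0.07, adjusted p = 1.56e-10) and -0.96 without it (SE 0.07, adjusted p = 1.56e-09), in the direction of Vegfb. Flt4, the receptor of Vegfc and Vegfd, was higher by 0.29 after TNFα (adjusted p = 0.0133), and its difference without TNFα was near 0 (adjusted p = 0.997). Tek, the receptor of Angpt1, was lower by a log2 difference of -0.25 after TNFα (adjusted p = 0.00668). Angpt2, Angpt4 and Tie1 passed no test, and 0 of the 6 genes were called for TNFα in either genotype. That is near the shares of all genes called for TNFα, 3.12% in SIMPL-/- and 5.15% in littermate MEFs.

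Among 12 class 3 semaphorins and plexins, the other partners of neuropilins, 2 were higher and 8 lower in SIMPL-/- MEFs, both after and without TNFα, with medians of -0.39 and -0.36. The share of all genes called was 36.3% after TNFα and 40.9% without it. Sema3f, the semaphorin that binds Nrp2, was lower by a log2 difference of -1.21 after TNFα and -1.10 without it, and Sema3d by -0.91 and -0.96. Sema3e, which acts on the plexin encoded by Plxnd1, was higher by 1.13 and 0.93, and the semaphorin receptor gene Plxna4 by 0.79 and 0.80. None of the 12 was called for TNFα in either genotype, near the shares of all genes called (3.12% in SIMPL-/- and 5.15% in littermate MEFs).

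Downstream of the receptors, 27 signalling genes were measured. TNFα called 2 of them in SIMPL-/- MEFs and 4 in littermate MEFs, all higher. The shares of all genes called higher were 1.73% in SIMPL-/- and 2.70% in littermate MEFs. Nfatc1, a calcineurin-dependent transcription factor, rose by 0.47 in SIMPL-/- (SE 0.06, adjusted p = 5.63e-05) and by 0.97 in littermate MEFs (SE 0.06, adjusted p = 1.5e-09). The difference between these responses was -0.51 (SE 0.08, adjusted p = 0.00597), of the size of that of Vegfa and opposite in sign. Rcan1, a calcineurin inhibitor and target of NFAT factors, rose by 0.44 in littermate MEFs (adjusted p = 0.000183). Between the genotypes after TNFα 5 were higher, led by Hspb1 (0.86), a small heat shock protein, and 12 lower, led by Plcg2 (-1.41), a phospholipase of blood cell receptors. In that comparison 17.8% of all genes were higher and 18.4% lower. Plcg2 was lower where the myeloid markers were lower, and their part in it was not tested.

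Of 10 Hif factors and their regulators, 1 was called for TNFα in each genotype. This was Egln3, a prolyl hydroxylase that marks Hif proteins for decay, at 0.74 in SIMPL-/- (adjusted p = 1.39e-05) and 0.80 in littermate MEFs (adjusted p = 2.69e-06). Hif1a was lower in SIMPL-/- MEFs by a log2 difference of -0.69 after TNFα and -0.72 without it. Of 19 known Hif targets, 2 rose and 1 fell with TNFα in SIMPL-/- MEFs and 3 rose in littermate MEFs, where 3.12% and 5.15% of all genes were called in SIMPL-/- and littermate MEFs. Hk2, a hexokinase of glycolysis, rose by 0.69 and 0.88 in SIMPL-/- and littermate MEFs. Adm, which encodes the vasodilator adrenomedullin, fell by 0.64 in SIMPL-/- MEFs (adjusted p = 5.83e-05) and its difference between the responses was -0.80 (SE 0.12, adjusted p = 0.0014). Between the genotypes 4 Hif targets were higher and 6 lower after TNFα, against 36.3% of all genes called. Without TNFα, 7 were higher and 5 lower, against 40.9% of all genes called. The list medians were -0.019 after TNFα and -0.0054 without it. After TNFα, Bnip3, a mitophagy receptor, stood at -1.33 and the glucose transporter gene Slc2a1 at 0.31.

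Of 25 other factors of vessel growth, 11 were higher and 9 lower in SIMPL-/- MEFs after TNFα, and 10 and 8 without it. Among all genes, 36.3% were called after TNFα and 40.9% without it. Ccn2, a matricellular growth factor, was higher by 1.07 and the Notch ligand gene Jag1 by 0.81 after TNFα, while the heparin-binding growth factor genes Mdk and Ptn were lower by log2 differences of -1.47 and -1.35. TNFα raised Pdgfb, which recruits pericytes, by 0.77 in SIMPL-/- (adjusted p = 2.04e-06) and 0.88 in littermate MEFs (adjusted p = 1.66e-07). It raised Fgf7, a growth factor for epithelium, by 0.46 in SIMPL-/- and 0.90 in littermate MEFs, and the difference between these responses was -0.44 (adjusted p = 0.0139). Vegfa and Fgf7 were thus called in opposite directions for that difference.

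The genes whose course over the 16 arrays was nearest to each member were found by the root mean square (RMS) difference in log2 after centring each gene, as a description. For Vegfa these were Vasn (0.108), Srxn1 (0.11) and Sphk1 (0.122), against an RMS of 0.406 for Vegfa about its own mean. Vasn averaged 11.11 and 10.71 in TNFα-treated and untreated SIMPL-/- MEFs, against 10.33 and 10.09 in TNFα-treated and untreated littermate MEFs. For Pgf they were Tbx3 (0.148), Fem1b and 3110021A11Rik, against 0.252 for Pgf about its own mean. The nearest genes were Phldb1 (0.104), Gfpt2 and Plxna4 for Flt1 and Renbp (0.113), Mt1 and Grina for Nrp2. For Vegfb they were Gaa (0.0798), Grina and Fbln1, and for Angpt1 Auts2 (0.119), Tmem229b and Frem1. Grina was near both Vegfb and Nrp2, the members lower in SIMPL-/- MEFs by about 1. The remaining members, Vegfc, Kdr and Nrp1, had group means within 0.07, 0.30 and 0.40 of each other and were not searched.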

How the data were processed

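Total RNA of 16 MEF cultures was labelled and hybridised to Affymetrix Mouse Gene 1.0 ST arrays. The deposited table holds log2 values that the authors made with RMA in Partek, per the labels and without versions, while the methods name Affymetrix Microarray Suite. Background, scaling and probe summary were thus fixed before these steps, and RMA compresses differences of dim genes. Of 28853 probe sets, 21789 have 1 gene symbol, 1621 several (left out) and 5443 are not listed. This gave 19938 genes, each with its brightest probe set, of which 19856 matched a RefSeq entry by Entrez number.

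Arrays were grouped by their titles. A mean for each of 4 groups was fitted to all arrays with limma 3.58.1 in R 4.3.3 (12 residual and 6.19 prior degrees of freedom), and 5 contrasts were tested, two-sided, with Benjamini-Hochberg adjustment over all genes and calls at an adjusted p under 0.05. The procedure was run on simulated data with independent noise on each array. That run could not check for fibroblast sets shared between arrays. Gene lists are described by counts and medians without a set test. Promoters are RefSeq sequences of build GRCm38.p6, and figures were drawn with matplotlib 3.10.9 in Python 3.11.15. The members, the lists and the rule for named genes (the members, the rest of the VEGF and Tie systems, the 2 largest rises and falls per list and comparison, and the 3 nearest genes for members whose group means span over 0.5) were chosen with earlier results of these data known, so the p-values are not independent evidence for that choice. Marker genes named for a check of cell type were named after their values were seen.

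Alternatives were centring, quantile normalization, leaving out dim genes, averaging probe sets, trended and robust moderation, array weights, only the compared arrays, the methods' t-test, other thresholds and leaving out each array. The p-values take the 4 arrays of a group as separate embryos, as the methods state, and otherwise measure only the spread between arrays. The methods describe 4 derivations per strain, so treated and untreated arrays of a genotype may come from the same 4 sets of fibroblasts, and the fit treats them as independent. No scan batch was given in the sources used here, and precision is limited by having 4 arrays per group. Within groups, the SD of a typical gene (median over genes) was 0.0890 to 0.103.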

Additional observations from a re-analysis of the deposited data

Results flagged for a closer look

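The response of Vegfa to TNFα differed between the genotypes by a tested difference of 0.51 in log2, SIMPL-/- minus littermate, with the 4 TNFα-treated SIMPL-/- arrays above all others and the littermate groups overlapping. In 3 of 36 groups of 4 arrays, 1 array stood far from the others by Dixon's ratio, where chance gives about 1 in 20. Pgf read 7.29 on TNFα-treated littermate replicate 1, against 6.79 to 6.87 on the other 3 arrays, a ratio of 0.858. The same array had the highest mean of its group for 8 of the 9 cell type marker lists, all but the lymphatic one, with chondrocyte and osteoblast markers at 7.14, against 6.73 to 6.84 on the others, and fibroblast markers at 12.08, against 12.05 to 12.06. Ibsp, a gene of the chondrocyte and osteoblast list, had an SD of 0.83 in the TNFα-treated littermate group. The other genes of that list had at most 0.27 there, and the part of Ibsp in the list mean was not examined. The part of these high list means in the Pgf value was not tested. Nrp2 read 8.96 on untreated SIMPL-/- replicate 4, against 9.16 to 9.19 on the others (ratio 0.902). It read 10.44 on TNFα-treated littermate replicate 4, against 10.53 to 10.54 on the others (ratio 0.905), a gap that is small beside the difference between the genotypes.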

How the results depend on the processing

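The Vegfa difference between the responses lay between 0.47 and 0.54 without each array in turn (adjusted p from 0.00377 to 0.0127), and its call was lost only at the stricter rule of a fold over 1.5 with p under 0.001, with adjusted p from 8.17e-05 to 0.00679 over the other settings. At that rule 0 members were called for TNFα in SIMPL-/-, 0 in littermate MEFs and 0 for the difference, and 5 between the genotypes after TNFα (2 higher, 3 lower). The methods' t-test called 2 members for TNFα in SIMPL-/- MEFs, with Flt1 and Nrp2 lost (adjusted p = 0.182 and 0.12), and 0 in littermate MEFs, with Flt1 lost (adjusted p = 0.0944), and it lost Kdr between the genotypes after TNFα (adjusted p = 0.119). With dim genes left out, 5 members were called after TNFα, since Pgf, Kdr and Angpt1 were not tested. Flt1 in SIMPL-/- MEFs was also lost with only the compared arrays (adjusted p = 0.0695) and without 11 of the 16 arrays in turn, all 8 untreated ones, TNFα-treated SIMPL-/- replicates 2 and 4 and TNFα-treated littermate replicate 3 (adjusted p from 0.0522 to 0.163). Without each array in turn, 1 to 2 members were called for the difference, 2 without TNFα-treated littermate replicate 1. Values near 0 that changed sign were Vegfc between the genotypes after TNFα (0.00472 centred, 0.0563 by quantiles, 0.0216 with array weights, -0.034 to 0.0339 without single arrays) and the Angpt1 difference between the responses (-0.0029 with array weights, -0.051 to 0.10 without single arrays). The responses in littermate MEFs of Vegfa (-0.0196 to 0.0551), Vegfb (-0.0693 to 0.0491), Pgf (-0.0576 to 0.11) and Kdr (-0.0259 to 0.0795), and Pgf between untreated genotypes (-0.0741 to 0.0453), also did so without single arrays. The cause was not tested. No paired analysis was possible because neither labels nor methods tie a treated array to an untreated one. Signal over background was not given, which limits what can be said of the dim members Pgf, Kdr and Angpt1.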
